A study of Mus musculus with 20 samples.

Results

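The Bcl2 family genes described here are 10 genes chosen by symbol out of the 24421 listed in the counts: the survival genes Mcl1, Bcl2l1, Bcl2, Bcl2a1a, Bcl2a1b and Bcl2a1d, the pore formers Bax and Bak1, and the BH3-only genes Bid and Bcl2l11. All 10 were among the 14030 genes kept by the filter on low counts. They were measured by poly(A) RNA sequencing of bone marrow neutrophils from 20 female mice in 4 groups of 5. WT (C57BL/6J) and Bmal1 Mye-/- mice were each sampled untreated and after imiquimod (IMQ). In the Bmal1 Mye-/- mice both copies of the clock gene Bmal1 are floxed and Cre is expressed from the Lyz2 (LysM) locus, which is active in monocytes and macrophages as well as neutrophils. The WT mice were purchased and did not carry the floxed alleles or the Cre, whereas the Bmal1 Mye-/- line was bred and kept in the authors' facility. Loss of Bmal1, these alleles and the source of the mice therefore cannot be told apart. IMQ, a TLR7/8 agonist that induces lupus features, was applied to the ears as a 5% cream 3 times per week for 6 weeks, starting at 8 to 10 weeks of age. No vehicle cream is mentioned for the untreated mice, and their age is not given in the sources used here.

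Cells commit to apoptosis when Bax and Bak1 proteins open pores in the outer mitochondrial membrane. The survival proteins hold Bax and Bak1 in check, and BH3-only proteins such as Bim (encoded by Bcl2l11) and Bid relieve that restraint. Neutrophils are short-lived, depend on Mcl1 protein and contain little Bcl2, and A1, encoded in mice by the Bcl2a1 paralogs, is a further survival protein of the lineage. Activity in this family is set largely by protein turnover and binding, which RNA counts do not measure.

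The libraries held 30782166 to 92613500 reads on genes, with a median of 66094896. Levels are given as CPM, read counts scaled by library size and TMM factors, and fold changes come from edgeR's quasi-likelihood test with p-values corrected over the whole tested set (Benjamini-Hochberg, threshold 0.05). Bmal1, listed as Arntl, had 0.895 to 1.71 CPM in untreated WT and 0.468 to 1.1 CPM in untreated Bmal1 Mye-/- (log2 fold change -0.90, SE 0.38, adjusted p = 1), so the deletion was not called on counts over the whole gene, of which the floxed part is a portion, whereas Lyz2, where Cre was inserted, fell by 6.40 on the log2 scale in untreated Bmal1 Mye-/-. With IMQ, Arntl had 0.562 to 1.87 CPM in WT and 0.337 to 1.52 CPM in Bmal1 Mye-/-, the highest of these in replicate 1. That difference was not called either (log2 fold change -0.65, SE 0.38, edgeR adjusted p = 0.305). The neutrophil label was checked on 13 markers, of which 12 were listed (Ly6g was not), and their summed level was 78400 to 179000 CPM. A set of 4 IMQ libraries stood apart by a mature neutrophil marker sum of 3540 to 9250 CPM against 15200 CPM or more in the other 16: IMQ-treated WT replicate 3 and IMQ-treated Bmal1 Mye-/- replicates 1, 3 and 5. IMQ-treated Bmal1 Mye-/- replicate 1 also had the highest monocyte marker sum, 1780 CPM against at most 642 CPM elsewhere. A further 2, IMQ-treated WT replicate 5 and IMQ-treated Bmal1 Mye-/- replicate 2, lay within the range of the untreated libraries on the first principal component. Calls that were lost without these libraries are given with and without them. In bulk RNA, fewer cells of a type and less RNA per cell cannot be told apart.

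The 3 Bcl2a1 paralogs lie on chromosome 9, and their sequences are shown first because they set how the counts can be read. Over the 516 coding bases (GENCODE vM21, build GRCm38) 12 positions differed among the paralogs, and the longest stretch identical in all was 217 bases. Bcl2a1a and Bcl2a1b differed at 11 positions (97.9% identity), Bcl2a1a and Bcl2a1d at 7 (98.6%) and Bcl2a1b and Bcl2a1d at 6 (98.8%). Of the 12 differing positions, 6 fell in the first 90 coding bases, which are in the first coding exon, at chr9:88957051-88957140 on the plus strand for Bcl2a1a, chr9:89199360-89199449 on the plus strand for Bcl2a1b and chr9:88731630-88731719 on the minus strand for Bcl2a1d. They are written below 5′ to 3′ with the positions that differ in capitals.
Bcl2a1a: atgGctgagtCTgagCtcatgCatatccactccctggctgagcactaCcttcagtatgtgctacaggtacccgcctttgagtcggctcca
Bcl2a1b: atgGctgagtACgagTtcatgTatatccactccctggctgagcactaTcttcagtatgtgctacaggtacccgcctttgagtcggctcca
Bcl2a1d: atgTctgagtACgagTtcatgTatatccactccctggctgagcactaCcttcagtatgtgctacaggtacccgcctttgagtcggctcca

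The reads were 50 bases long, and only 31% of the 50-base windows of Bcl2a1a transcripts, 20.8% of those of Bcl2a1b and 20.5% of those of Bcl2a1d occurred in no other gene's transcripts. A 50-base read from a shared window could not by itself be placed in 1 paralog. The paper sequenced both ends of each fragment, but its methods map only Read 1. Whether the deposited counts used the mate read is not given in the sources used here. The window shares take no mate read into account. Reads that did not align to 1 place only, 4.37% to 6.5% of those accounted for, were counted for no gene. The sum of the paralogs is given beside each of them, but it adds counted reads only and does not recover those. Bcl2a1c and Gm29094 share windows with the paralogs and are not in the sum. Bcl2a1b exons also overlap the gene model Gm29094 on the same strand. The other members were easier to assign: 100% of windows were unique for Mcl1 and Bcl2l1, 99.9% for Bcl2l11, 94.7% for Bcl2, 91.5% for Bax, 83.6% for Bid and 82.9% for Bak1. Bax exons overlap the gene model Gm45808 on the same strand. Bid exons overlap Bcl2l13, Bak1 exons overlap Ggnbp1 and Bcl2 exons overlap D630008O14Rik, each on the opposite strand. The strand setting of the counting is not given in the sources used here, and reads of such partners could not be told apart without it.

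Per kilobase of exon, Mcl1 had by far the highest level of the family. In untreated WT its mean was 307 ± 60.3 CPM per kilobase (SD, n = 5), followed by Bak1 at 39.1 ± 2.65 and Bid at 23.4 ± 1.83. Bcl2l1, which encodes Bcl-xL, followed at 9.51 ± 0.303 CPM per kilobase and Bax at 9.26 ± 1.21, a difference within their spread. Bcl2l11 at 3.1 ± 0.619 and Bcl2a1b at 3.04 ± 0.491 also did not differ beyond their spread. The lowest levels were those of Bcl2a1a at 1.04 ± 0.349, Bcl2a1d at 0.47 ± 0.138 and Bcl2 at 0.395 ± 0.123 CPM per kilobase, and those of Bcl2a1d and Bcl2 lay within their spread. The place of the Bcl2a1 paralogs depended on the length used: over the unique windows alone Bcl2a1b reached 15.5 CPM per kilobase, above Bcl2l1 at 9.23. Of the reads assigned to the 3 paralogs, Bcl2a1b took a mean of 64.3% to 69.9% across the 4 groups, Bcl2a1a 18.2% to 22.7% and Bcl2a1d 9.78% to 14.2%.

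The first question was how IMQ treatment changed these genes in each genotype. The Bcl2a1 paralogs had the largest fitted changes of the 10 members, all 3 fell in Bmal1 Mye-/-, and in WT Bcl2a1b and the sum of the 3 fell. Bcl2a1b fell 2.07-fold in WT and 2.76-fold in Bmal1 Mye-/-, and the summed paralogs fell 2.18-fold and 2.93-fold. In WT, 2 of the 10 members passed the threshold, Bcl2a1b (lower) and Bcl2l1 (higher), where 3.95% of all tested genes did (2.34% higher and 1.6% lower). In Bmal1 Mye-/- 6 of 10 passed it, where 23.5% of all tested genes did (14.4% higher and 9.04% lower): Bcl2a1a, Bcl2a1b, Bcl2a1d and Bid fell, and Bax and Bak1 rose. Mcl1, Bcl2 and Bcl2l11 passed in neither genotype. The median log2 fold change of the 10 members was -0.22 in WT and -0.27 in Bmal1 Mye-/-, beside 0.03 and 0.02 over all tested genes. These counts and medians take the 3 Bcl2a1 paralogs, which share most of their sequence, as separate members.

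**Figure D1:**
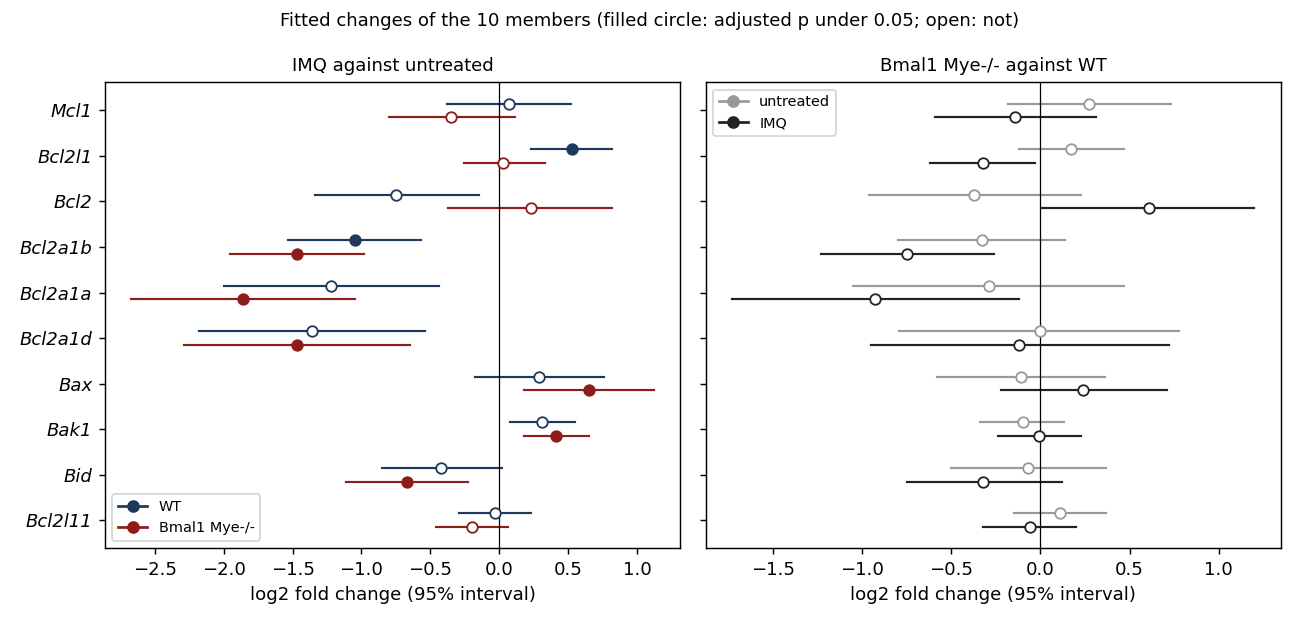
Fitted log2 fold changes (points) with 95% intervals (lines) of the 10 members for IMQ against untreated in each genotype (left) and for the genotypes compared in untreated and in IMQ-treated mice, as Bmal1 Mye-/- over WT (right), with filled points where the adjusted p was under 0.05. The 3 Bcl2a1 paralogs lie left of 0 in both genotypes on the left, with estimates from -1.86 to -1.05, and no point is filled on the right.

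Bcl2a1b, the paralog with the most reads, had 1.93, 2.49, 2.31, 2.67 and 3 CPM in untreated WT replicates 1 to 5 and 0.957, 0.932, 0.945, 1.25 and 1.9 CPM in IMQ-treated WT. The groups did not overlap, as was the case for 3.31% of tested genes in this direction, but IMQ-treated WT replicate 5 came close to the lowest untreated library. The fitted change was -1.05 on the log2 scale (SE 0.23, edgeR adjusted p = 0.0213). This call was lost when any one of 7 WT libraries was left out (untreated replicates 2, 3, 4 or 5, or IMQ replicates 1, 2 or 3), with estimates of -1.08 to -0.97 and adjusted p up to 0.0608, and in a fit of the WT groups alone (-1.06, adjusted p = 0.0613).

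In untreated Bmal1 Mye-/- the 5 values of Bcl2a1b were 1.75, 1.5, 2.29, 2.19 and 2.14 CPM, and with IMQ they were 0.623, 0.598, 0.994, 0.688 and 0.658 CPM. Every treated library lay below every untreated one, as for 9.31% of tested genes. The change was -1.47 (SE 0.23, edgeR adjusted p = 0.00383), and it stayed past the threshold with any one of the 20 libraries left out.

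Bcl2a1a behaved alike at lower counts. Its levels were 0.652, 0.567, 0.844, 0.895 and 1.3 CPM in untreated WT and 0.146, 0.214, 0.472, 0.37 and 0.613 CPM in IMQ-treated WT, where replicate 5 overlapped the untreated range (log2 fold change -1.22, SE 0.37, edgeR adjusted p = 0.0662). This change passed by DESeq2 (adjusted p = 0.0134) and by limma (0.039). The Bmal1 Mye-/- values were 0.639, 0.734, 0.471, 0.749 and 0.875 CPM without IMQ and 0.104, 0.23, 0.124, 0.234 and 0.263 CPM with it. There the groups did not overlap and Bcl2a1a fell by 1.86 on the log2 scale, a 3.63-fold change (SE 0.39, edgeR adjusted p = 0.00651).

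Bcl2a1d had the fewest reads, 4 to 41 per library. It ranged from 0.227 to 0.515 CPM in untreated WT and from 0.0832 to 0.272 CPM in IMQ-treated WT (log2 fold change -1.36, SE 0.39, edgeR adjusted p = 0.0551), a change that passed by DESeq2 (adjusted p = 0.0136), by limma (0.0435) and with upper-quartile factors (0.0492). The range in Bmal1 Mye-/- was 0.195 to 0.54 CPM without and 0.071 to 0.184 CPM with IMQ, without overlap, and the gene fell by 1.47 on the log2 scale (SE 0.39, edgeR adjusted p = 0.0154).

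Summing the paralogs removed the question of which of the 3 a counted read came from. The sum was 3.05, 3.29, 3.5, 4.04 and 4.82 CPM in untreated WT and 1.19, 1.42, 1.59, 1.73 and 2.66 CPM in IMQ-treated WT, without overlap. Bmal1 Mye-/- libraries had 2.58, 2.68, 3.1, 3.44 and 3.56 CPM without IMQ, and 0.882, 1.01, 1.19, 1.1 and 1.05 CPM with it, again without overlap and with little spread in the treated group (1.05 ± 0.114, SD, n = 5). The sum fell by 1.12 in WT (SE 0.20, edgeR adjusted p = 0.0109) and by 1.55 in Bmal1 Mye-/- (SE 0.21, edgeR adjusted p = 0.0014) on the log2 scale. It remained past the threshold in both genotypes with any one library left out (adjusted p at most 0.0384 in WT and 0.00807 in Bmal1 Mye-/-), but in a fit of the WT groups alone it was at the threshold (-1.13, adjusted p = 0.05).

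**Figure D2:**
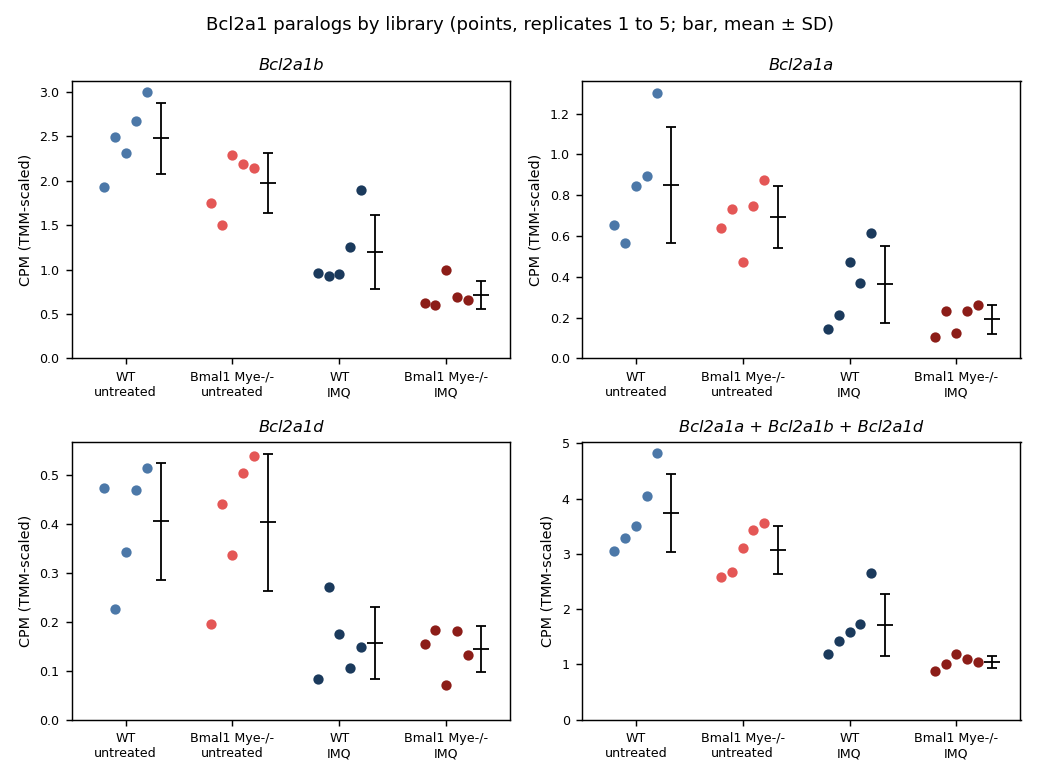
Levels in CPM (TMM-scaled, linear axis from 0) of the 3 Bcl2a1 paralogs and their sum in the 20 libraries, with points for replicates 1 to 5 of each group and a bar for the mean ± SD. The sum lies between 2.58 and 4.82 CPM in the 10 untreated libraries and between 0.882 and 2.66 CPM in the 10 IMQ libraries, with no overlap within a genotype.

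Markers of cell state and of other cells also differed with IMQ, in some lists and not in others. The summed level of 10 cell cycle genes was 477 to 752 CPM in untreated WT, 398 to 709 CPM in untreated Bmal1 Mye-/-, 467 to 2510 CPM in IMQ-treated WT and 1160 to 2670 CPM in IMQ-treated Bmal1 Mye-/-, where 8 of the 10 rose. Of the 7 mature neutrophil markers, 3 fell in Bmal1 Mye-/- and 0 in WT, and their sum was 16800 to 22200 CPM over the untreated libraries, 5110 to 20700 CPM in IMQ-treated WT and 3540 to 16300 CPM in IMQ-treated Bmal1 Mye-/-. B-lineage markers, from cells that also use Bcl2a1 and Bcl2, summed to 9.89 to 25.3 CPM in untreated WT and 4.93 to 9.98 CPM in IMQ-treated WT, and to 6.53 to 26.3 CPM and 5.31 to 8.51 CPM in Bmal1 Mye-/-, where 3 of 9 tested markers fell. Among T and NK markers 2 of 5 tested fell in Bmal1 Mye-/-, and the sum went from 15.8 to 24.6 CPM to 6.04 to 15.4 CPM in WT and from 15.7 to 22.9 CPM to 8.58 to 20.8 CPM in Bmal1 Mye-/-. Of the remaining lists, 6 of 8 monocyte and 1 of 5 basophil and mast cell markers rose and 1 of 12 neutrophil markers fell in Bmal1 Mye-/-, and in WT 1 of 5 erythroid and 1 of 8 macrophage markers rose. The monocyte sum in Bmal1 Mye-/- was 283 to 404 CPM without IMQ. With IMQ it was 1780, 642, 171, 295 and 132 CPM in replicates 1 to 5, on both sides of that range, and 0 of the 8 markers were higher without overlap. Of 9 eosinophil markers 2 fell in WT (median log2 fold change -0.88, summed level 37.9 to 123 CPM without and 21.7 to 42.8 CPM with IMQ). In Bmal1 Mye-/- 1 eosinophil marker fell while 6 of the 9 were fitted higher (median 0.80, summed level 49.4 to 143 CPM without and 43.8 to 213 CPM with IMQ). Early granule (4 tested) and progenitor (6 tested) markers had 0 calls in either genotype. The part of these cells in the Bcl2a1 result was not tested.

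Without the 4 IMQ libraries low in mature markers, the summed Bcl2a1 change was -1.11 in WT (edgeR adjusted p = 0.00897) and -1.52 in Bmal1 Mye-/- (edgeR adjusted p = 0.019), where 2 IMQ libraries were then left. Of the 10 members Bcl2a1b alone was past the threshold in that Bmal1 Mye-/- fit (-1.61, adjusted p = 0.0202), where 2.22% of all tested genes were. Bcl2a1a (-1.58, adjusted p = 0.0915), Bcl2a1d (-1.14, 0.236), Bid (-0.32, 0.316), Bax (0.29, 0.292) and Bak1 (0.32, 0.201) were no longer past it. Without the 2 IMQ libraries close to the untreated ones, the summed change was -1.34 in WT (edgeR adjusted p = 0.000581) and -1.51 in Bmal1 Mye-/- (edgeR adjusted p = 0.000265), and 5 members passed in WT, where 15.1% of all tested genes did.

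**Figure D3:**
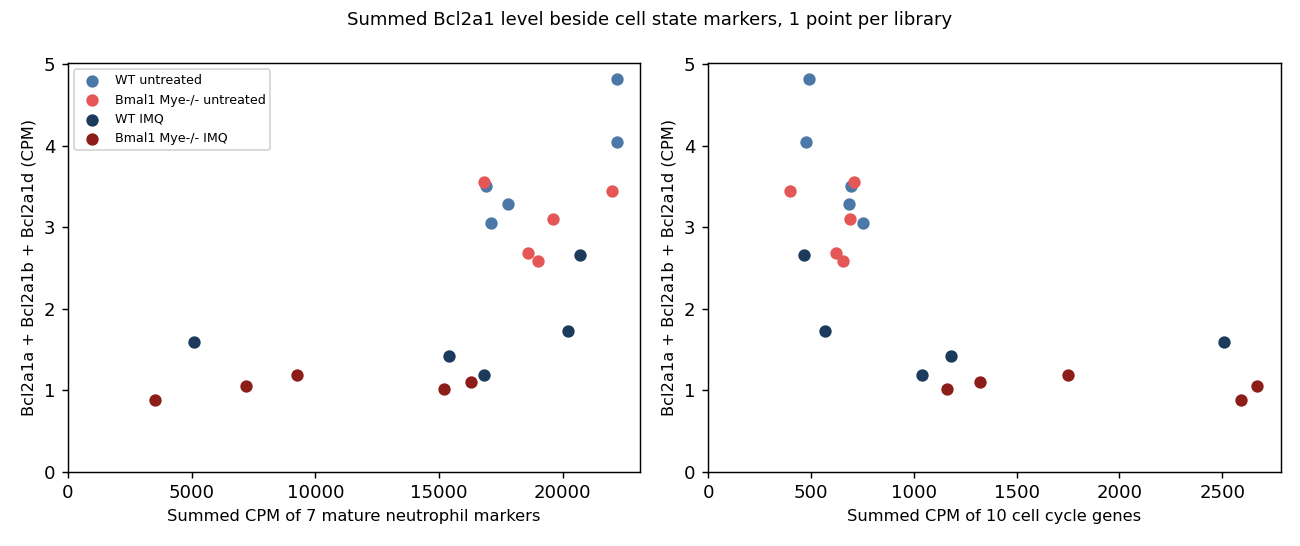
Summed Bcl2a1 level (CPM, vertical axis) against the summed CPM of 7 mature neutrophil markers (left) and of 10 cell cycle genes (right), 1 point per library and coloured by group. Of the 6 IMQ libraries with mature marker sums of 15200 CPM or more, 5 had Bcl2a1 sums of 1.01 to 1.73 CPM, below all 10 untreated libraries, and IMQ-treated WT replicate 5 had 2.66 CPM.

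Bcl2l1, the Bcl-xL gene, rose in WT. Its levels were 42.9, 45.5, 42.5, 44.7 and 42.5 CPM in untreated WT and 56.5, 64.6, 65, 75.7 and 52.2 CPM with IMQ, so that each treated library exceeded each untreated one (3.11% of tested genes were higher without overlap). The change was 0.53 on the log2 scale, 1.44-fold (SE 0.14, edgeR adjusted p = 0.0446). The adjusted p was close to the threshold and the call was lost in 16 of the 20 fits that left out 1 library, any of the untreated libraries of either genotype, WT IMQ replicates 1 to 4 or Bmal1 Mye-/- IMQ replicates 2 and 3, with estimates of 0.44 to 0.56 and adjusted p up to 0.114. Bcl2l1 values in Bmal1 Mye-/- were 48.7, 53.7, 46.9, 48.9 and 47.5 CPM without and 32, 54.8, 44.7, 51.5 and 68.3 CPM with IMQ. The treated libraries spread to both sides of the untreated ones, and the fitted change was 0.03 (95% interval -0.26 to 0.33, adjusted p = 0.881).

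Mcl1 had no change past the threshold. It ranged from 843 to 1290 CPM (median 974) in untreated WT, from 619 to 1450 CPM (median 1170) in IMQ-treated WT, from 1150 to 1460 CPM (median 1260) in untreated Bmal1 Mye-/- and from 615 to 1370 CPM (median 1020) with IMQ. The fitted changes with IMQ were 0.07 in WT (95% interval -0.38 to 0.52) and -0.35 in Bmal1 Mye-/- (-0.80 to 0.11). The lowest libraries, IMQ-treated WT replicate 3 at 619 CPM and IMQ-treated Bmal1 Mye-/- replicates 1 at 615 and 5 at 772 CPM, were among the 4 with low mature markers.

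Bcl2 was spread widely within groups. Its 5 values were 3.85, 2.32, 5.3, 2.87 and 3.76 CPM in untreated WT and 1.68, 3.38, 1.7, 1.67 and 2.36 CPM in IMQ-treated WT (log2 fold change -0.75, SE 0.29, edgeR adjusted p = 0.127). The Bmal1 Mye-/- libraries had 3.61, 3.98, 2.09, 2.13 and 2.17 CPM without and 5.24, 2.64, 3.23, 2.58 and 2.72 CPM with IMQ (0.23, SE 0.28, edgeR adjusted p = 0.571). Untreated and treated libraries overlapped in both genotypes.

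The pore formers were higher after IMQ in Bmal1 Mye-/-. Bak1 had 81.1, 85.6, 97.4, 84 and 89.2 CPM in untreated and 124, 98.5, 132, 119 and 108 CPM in IMQ-treated Bmal1 Mye-/-. It rose by 0.41 on the log2 scale, 1.33-fold (SE 0.11, edgeR adjusted p = 0.0171), without overlap, as for 10.8% of tested genes, and kept the call with any one library left out. In WT it went from 90.9, 93, 105, 93 and 88.1 CPM to 149, 115, 125, 105 and 89.8 CPM, which overlapped (0.31, SE 0.11, edgeR adjusted p = 0.106). Ggnbp1, whose exons overlap those of Bak1 on the opposite strand, had changes of nearly the same size, 0.40 in WT (adjusted p = 0.115) and 0.42 in Bmal1 Mye-/- (adjusted p = 0.0448), and whether the genes share reads was not tested.

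Bax had 14.3, 12.2, 11.8, 15.4 and 13.9 CPM in untreated and 37.9, 17.5, 17.2, 15.6 and 17.5 CPM in IMQ-treated Bmal1 Mye-/-. The groups did not overlap and Bax rose by 0.65 on the log2 scale (SE 0.23, edgeR adjusted p = 0.0449). Replicate 1, which had the monocyte marker sum of 1780 CPM and the lowest mature marker sum, stood far above the rest. Without it the change was 0.34 (adjusted p = 0.159), the call was also lost without any one of the 5 untreated Bmal1 Mye-/- libraries or IMQ replicate 5 (0.61 to 0.71, adjusted p up to 0.0893), and with the replicate number as a block the change was 0.60 (adjusted p = 0.0662). The values in WT were 14.8, 15.9, 16.9, 12.4 and 12.9 CPM without and 14.3, 15.9, 26.8, 19.3 and 12.9 CPM with IMQ, and overlapped (0.29, SE 0.22, edgeR adjusted p = 0.475).

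Of the BH3-only members, Bid, which death receptors engage through caspase-8, fell in Bmal1 Mye-/-. Its levels were 69.6, 74.9, 90.5, 92 and 70.3 CPM without and 45, 64.2, 45.3, 63.4 and 31.9 CPM with IMQ, without overlap (log2 fold change -0.67, SE 0.21, edgeR adjusted p = 0.0294). The call was lost without untreated replicate 3 or 4 or IMQ replicate 1, 3 or 5, with estimates of -0.62 to -0.54 and adjusted p up to 0.0793. In WT, Bid ranged from 74.6 to 92.6 CPM without IMQ, and the treated libraries had 53.4, 53.3, 35.5, 82.1 and 86.8 CPM, 3 below the untreated range and 2 inside it (-0.42, SE 0.21, edgeR adjusted p = 0.245).

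Bcl2l11, which encodes Bim, had fitted changes close to 0. Its mean was 24.9 ± 4.97 CPM in untreated WT, 24.4 ± 2.84 in IMQ-treated WT, 26.9 ± 3.14 in untreated and 23.4 ± 1.76 in IMQ-treated Bmal1 Mye-/- (SD, n = 5). The 95% interval of its change ran from -0.29 to 0.23 in WT and from -0.46 to 0.06 in Bmal1 Mye-/-.

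**Figure D4:**
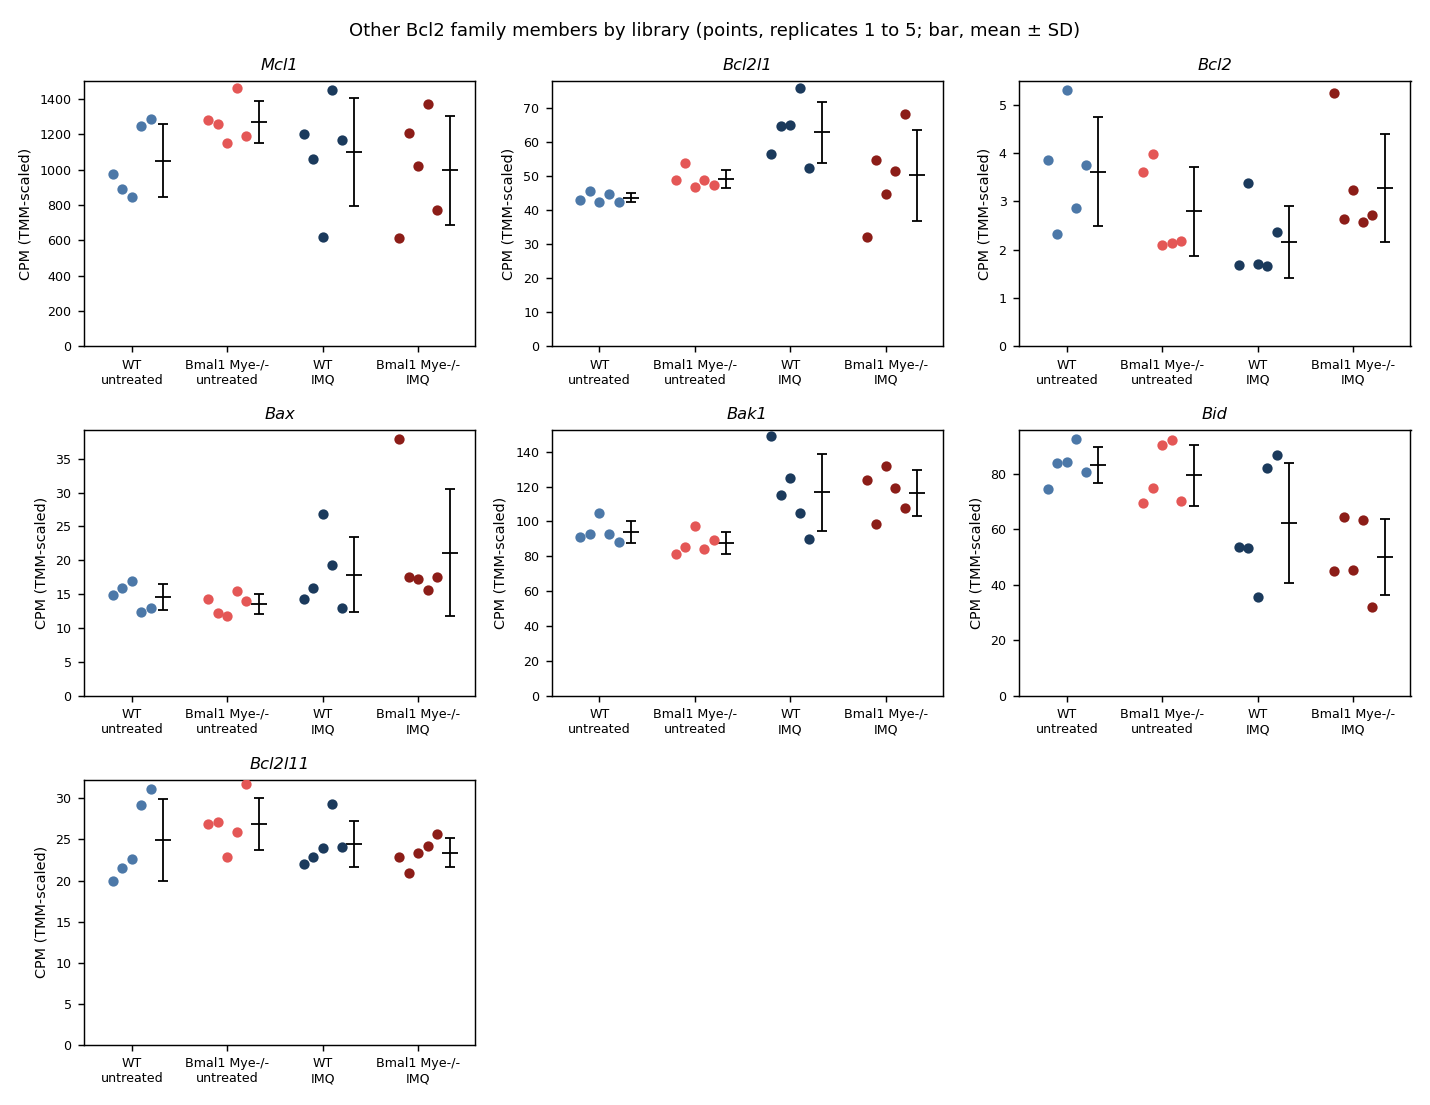
Levels in CPM (TMM-scaled, linear axes from 0) of the 7 members outside the Bcl2a1 cluster, with points for replicates 1 to 5 of each group and a bar for the mean ± SD. Bax in IMQ-treated Bmal1 Mye-/- has 1 point at 37.9 CPM with the others between 15.6 and 17.5 CPM, and each IMQ-treated WT library is above each untreated WT library for Bcl2l1.

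A ratio of counts within a library does not depend on library scaling, and 3 ratios of a survival gene to a death gene were set side by side as a description. The log2 ratio of summed Bcl2a1 to Bcl2l11 was -2.71, -2.71, -2.69, -2.86 and -2.69 in untreated WT and -4.21, -4.01, -3.91, -4.08 and -3.18 in IMQ-treated WT. For Bmal1 Mye-/- it was -3.38, -3.34, -2.89, -2.91 and -3.15 without and -4.70, -4.37, -4.29, -4.46 and -4.61 with IMQ. Treated and untreated libraries did not overlap within a genotype, although IMQ-treated WT replicate 5 lay inside the untreated Bmal1 Mye-/- range. The genotypes did not overlap at either treatment, but their nearest values almost met. These were -2.86 in WT and -2.89 in Bmal1 Mye-/- without IMQ, and -4.21 and -4.29 with it. Neither summed Bcl2a1 nor Bcl2l11 was called between the untreated genotypes. How many other ratios part the groups was not computed. The ratio of Mcl1 to Bax overlapped between all groups, with means of 6.16 ± 0.47 in untreated WT, 6.55 ± 0.10 in untreated Bmal1 Mye-/-, 5.94 ± 0.81 with IMQ in WT and 5.59 ± 0.95 with IMQ in Bmal1 Mye-/- (SD, n = 5), and the lowest values were 4.53 in IMQ-treated WT replicate 3 and 4.02 in IMQ-treated Bmal1 Mye-/- replicate 1. For Bcl2 to Bax the means were -2.06 ± 0.44, -2.32 ± 0.51, -3.06 ± 0.73 and -2.65 ± 0.16 in that order.

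**Figure D5:**
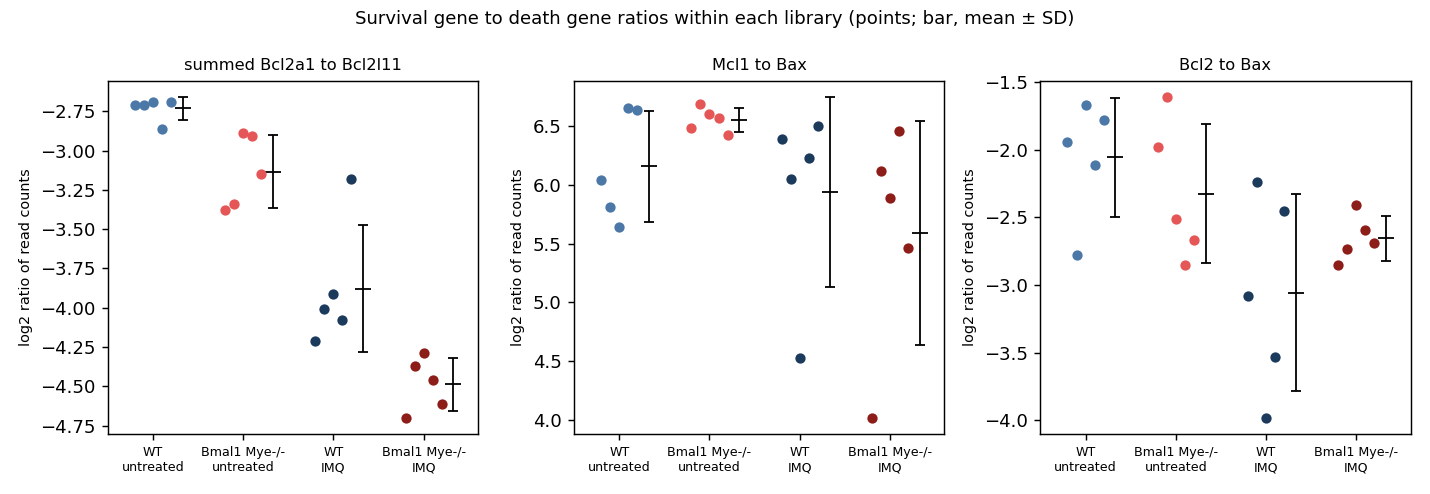
Log2 ratio of read counts of a survival gene to a death gene in each of the 20 libraries, with points for replicates 1 to 5 and a bar for the mean ± SD. For summed Bcl2a1 to Bcl2l11 the values run from -2.86 to -2.69 in untreated WT down to -4.70 to -4.29 in IMQ-treated Bmal1 Mye-/-, with no overlap of treated and untreated within a genotype, and the other ratios overlap.

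The second question was whether the family differed between Bmal1 Mye-/- and WT mice. None of the 10 members passed the threshold between the genotypes without IMQ, where 0.207% of tested genes did, and 0 of 10 had an unadjusted p under 0.05, as against 2.19% of tested genes. DESeq2 also called 0. The test pooled the spread over the 4 groups, and the IMQ libraries varied more among themselves than the untreated ones. In a fit of the untreated groups alone 59 genes passed, 0.442% of those tested, and 0 of the 10 members did. Bcl2l1 was the one member without overlap, at 46.9 to 53.7 CPM in untreated Bmal1 Mye-/- and 42.5 to 45.5 CPM in untreated WT, as were 0.791% of tested genes in that direction (log2 fold change 0.17, 95% interval -0.12 to 0.47, edgeR adjusted p = 1).

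With IMQ, 0 of 10 members passed between the genotypes by edgeR or DESeq2, where 0.292% of tested genes did by edgeR, and 4 had an unadjusted p under 0.05, beside 19.9% of tested genes. These were Bcl2a1b (-0.75, SE 0.23, edgeR adjusted p = 0.181), Bcl2a1a (-0.93, SE 0.39, edgeR adjusted p = 0.231), Bcl2 (0.61, SE 0.29, edgeR adjusted p = 0.249) and Bcl2l1 (-0.32, SE 0.14, edgeR adjusted p = 0.24). Summed Bcl2a1 differed by -0.71 (SE 0.21, edgeR adjusted p = 0.165). It passed by DESeq2 (-0.73, adjusted p = 0.0374) and without IMQ-treated WT replicate 3 (-0.73, edgeR adjusted p = 0.0296), and was -0.49 without IMQ-treated WT replicate 5. In the same comparison 3 of 9 eosinophil markers were called higher in Bmal1 Mye-/- (median log2 fold change 2.24), with sums of 43.8 to 213 CPM against 21.7 to 42.8 CPM in WT, and their part in the Bcl2a1 difference was not tested. Without replicate 3, Bcl2a1b alone was -0.82 (edgeR adjusted p = 0.0281) and 3129 genes in all passed, in place of 41.

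Whether the response to IMQ differed between the genotypes was tested by the interaction, in which 0 of the 10 members and 0 of the 14030 tested genes passed by edgeR (0%). At an unadjusted p under 0.05 there were 2 members and 721 genes (5.14%). The 2 were Bcl2 (0.97, SE 0.40, adjusted p = 0.64) and Bcl2l1 (-0.49, SE 0.20, adjusted p = 0.64). The call of Bcl2l1 in WT, and those of Bcl2a1a, Bcl2a1d, Bid, Bax and Bak1 in Bmal1 Mye-/-, are therefore not shown to differ between the genotypes. For summed Bcl2a1 the interaction was -0.43 (SE 0.29, edgeR adjusted p = 0.64).

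Promoters were read for all 10 members, whether or not they changed. RefSeq gives 13 promoter windows (GRCm38.p6, 250 bases before to 50 after a start site) for the 10 members. They were searched on both strands for an E-box bound by BMAL1 with CLOCK (CACGTG), an NF-kB motif (GGGA and CC on the sides of a central TT, with any base before and after the TT), a STAT motif (TTCNNNGAA) and a motif of PU.1, a myeloid factor (GAGGAAG). The PU.1 letters were present in Bcl2a1a, Bcl2a1b, Bcl2a1d, Bcl2 and Bak1, and in 13.6% of all 32851 windows. The Bcl2a1 stretches, printed below, are nearly the same, so their matches are not separate occurrences. In Bcl2a1a and Bcl2a1b there were 2 copies that share 1 base, and in Bcl2a1d 1 copy. The E-box letters occurred in Bax only, in 2 copies, and in 7.15% of all windows. No member window held the NF-kB or the STAT letters (1.2% and 8.3% of all windows). These matches describe letters and not binding. The stretches below are written 5′ to 3′ on the strand of the gene with the motif in capitals, at chr9:88956776-88956855 (plus strand) for Bcl2a1a, chr9:89199085-89199164 (plus) for Bcl2a1b, chr9:88731915-88731994 (minus) for Bcl2a1d and chr7:45466899-45466958 (minus) for Bax, where the last base shown is next to the start site.
Bcl2a1a: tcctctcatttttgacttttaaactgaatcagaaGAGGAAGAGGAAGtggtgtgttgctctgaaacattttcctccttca
Bcl2a1b: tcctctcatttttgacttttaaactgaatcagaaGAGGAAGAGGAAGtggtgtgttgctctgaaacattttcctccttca
Bcl2a1d: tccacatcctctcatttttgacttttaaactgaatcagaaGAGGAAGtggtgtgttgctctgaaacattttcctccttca
Bax: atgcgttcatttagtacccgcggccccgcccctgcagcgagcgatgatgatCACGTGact

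Around the 10 members, 62 further apoptosis genes were listed (other family members, caspases and apoptosome, inhibitors of apoptosis, death receptors, genes that control Mcl1, and survival receptors), of which 55 were tested. In WT 1 of 55 passed with IMQ, Csf2rb2, a receptor chain, which rose by 0.96 on the log2 scale (SE 0.15, edgeR adjusted p = 0.0069) and kept the call with any one library left out. In Bmal1 Mye-/- 12 of 55 passed, 8 higher and 4 lower, a share close to that of all tested genes. The median change over the 55 was 0.14 in WT and 0.08 in Bmal1 Mye-/-. Without the 4 IMQ libraries low in mature markers, 1 of these genes passed in Bmal1 Mye-/-, where 2.22% of all tested genes did.

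Among the 12, Birc5 (survivin, made in dividing cells) rose by 1.69 (SE 0.40, edgeR adjusted p = 0.00908), beside the rise of the cell cycle markers. Casp8, the initiator caspase of death receptors, rose by 0.73 (SE 0.17, edgeR adjusted p = 0.00917), and Cycs, the cytochrome c that leaves mitochondria to start the apoptosome, by 0.79 (SE 0.23, edgeR adjusted p = 0.0228). Birc2, an inhibitor of apoptosis, fell by 0.42 (SE 0.11, edgeR adjusted p = 0.0141), and Csf3r, the G-CSF receptor and itself one of the mature markers, fell by 1.38 (SE 0.40, edgeR adjusted p = 0.0223). Csf3r and Cycs lost the call without untreated Bmal1 Mye-/- replicate 4 (-1.34 and 0.80), IMQ replicate 1 (-1.17 and 0.59) or IMQ replicate 5 (-1.20 and 0.77). All 5 lost it without the 4 IMQ libraries low in mature markers, where the changes were 0.99 for Birc5 (edgeR adjusted p = 0.112), 0.79 for Casp8 (0.0668), 0.18 for Cycs (0.672), -0.28 for Birc2 (0.156) and -0.74 for Csf3r (0.0947).

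Several other apoptosis genes were not called by edgeR. Bbc3 (Puma) differed by 0.88 in WT (edgeR adjusted p = 0.0877, DESeq2 0.0399) and 0.72 in Bmal1 Mye-/- (edgeR adjusted p = 0.0766). Bmf differed by -0.34 in WT (edgeR adjusted p = 0.713) and -1.12 in Bmal1 Mye-/- (edgeR adjusted p = 0.0837, DESeq2 0.0456). Without the 4 IMQ libraries low in mature markers Bbc3 was 0.92 in WT (edgeR adjusted p = 0.023) and 0.26 in Bmal1 Mye-/- (0.634), and Bmf was -0.44 in Bmal1 Mye-/- (0.588). The values were 0.19 and 0.21 for Bad, -0.10 and 0.29 for Pmaip1 (Noxa), 0.25 and 0.13 for Apaf1, 0.26 and 0.08 for Xiap, and 0.08 and 0.37 for Trp53, in WT and Bmal1 Mye-/- respectively. Of these, Apaf1 was called in Bmal1 Mye-/- by limma (0.25, adjusted p = 0.0271) and in WT by edgeR without the 4 libraries (0.30, adjusted p = 0.0309). Between the genotypes, without or with IMQ, and in the interaction, 0 of 55 passed by edgeR or DESeq2.

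Across the 20 libraries the log2 CPM of Bcl2a1b went with that of Bcl2a1a at a Pearson r of 0.86 and with Bcl2a1d at 0.67, as a description, since the libraries share the groups and the paralogs share sequence. The tested genes most like Mcl1 were Bach1 (0.95), Clec4e and Notch2 (both 0.94). For Bid they were Focad, Ninj1 and Nod2 (all 0.97), and for Bcl2a1b Dalrd3 (0.94), Chrm1 and Tnni2 (both 0.93). Bax was most like Atp5d (0.94), Bak1 most like Tfg (0.91), Bcl2l1 most like Kif2a (0.90) and Bcl2a1a most like Hist1h2bc (0.93). The patterns least shared with another gene were those of Bcl2a1d, Bcl2l11 and Bcl2, whose nearest genes were Fam222a (0.89), Tnfaip6 (0.80) and Parm1 (0.79).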

How the data were processed

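Bulk RNA-seq counts of 20 bone marrow neutrophil libraries were analysed, grouped by the genotype, treatment and number in their labels. The authors isolated neutrophils by negative selection and deposited raw counts per gene for each library, 24421 genes and 5 summary lines per file. The methods name TopHat on mm10 with 50-base reads, whereas the submitters' processing notes list STAR 2.7.8a and HTSeq 2.0.1; the annotation and strand setting are not given in the sources used here. Reads on no feature were 51.85% to 57.79% of those accounted for, and stayed out of library sizes. A table of the whole series holds the same counts and was not used.

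In R 4.3.3 with edgeR 4.0.16, 14030 genes passed filterByExpr, TMM factors were 0.854 to 1.38, and 1 quasi-likelihood model of the 4 groups was fitted. P-values rest on the spread between the 5 libraries of each group, pooled over the 4 groups. The labels name no litter, cage or batch. The paper's methods give either a NovaSeq or a NextSeq as the sequencer. The instrument of each library is unknown here, so a sequencer effect was not tested. DESeq2 1.42.0, limma 3.58.1 on log2(CPM + 0.1), other scalings and filters, the replicate number as a block, summed paralogs and leaving out each library were alternatives. Only the main model was tested on simulated data, on the comparison of IMQ with untreated in WT. Deviations of same-numbered libraries correlated at 0.128 to 0.426 in Bmal1 Mye-/- and 0.0728 to 0.384 in WT between untreated and IMQ. The labels do not say that the numbers pair libraries, and the main model did not pair them in either genotype. Windows of 50 bases were matched exactly to GENCODE vM21 transcripts; promoters are RefSeq's.

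The members and lists were chosen with earlier results of these data known, so no p is adjusted over them alone. All members were named, with the 6 wider-list genes of smallest adjusted p among those called in each comparison, and Bad, Bbc3, Pmaip1, Bmf, Apaf1, Xiap, Birc5, Csf3r and Trp53 throughout; 1 gene that this rule names is not reported here. The 3 most correlated genes of a member were found by Pearson's r. Neutrophil, granule, lymphoid, erythroid, monocyte, macrophage, eosinophil, basophil, progenitor and cell cycle markers were summed per library.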

Additional observations from a re-analysis of the deposited data

Results flagged for a closer look

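Of 56 groups of 5 values examined, 5 held a library whose gap to the others exceeded Dixon's limit, where chance gives about 1 in 20. In IMQ-treated Bmal1 Mye-/-, Bax in replicate 1 was 37.9 CPM against 15.6 to 17.5 CPM in the others, and Bcl2 in the same replicate was 5.24 CPM against 2.58 to 3.23 CPM. That library had the highest monocyte marker sum, 1780 CPM, and the lowest mature neutrophil marker sum, 3540 CPM. Bcl2a1b in IMQ-treated Bmal1 Mye-/- replicate 3 was 0.994 CPM against 0.598 to 0.688 CPM, still below every untreated library. The log2 ratio of Mcl1 to Bax in IMQ-treated WT replicate 3 was 4.53 against 6.05 to 6.50, in a library with a mature marker sum of 5110 CPM. The log2 ratio of summed Bcl2a1 to Bcl2l11 in untreated WT replicate 4 was -2.86 against -2.71 to -2.69, a small gap in a group with little spread. No member's response to IMQ was shown to differ between the genotypes, with a lowest adjusted interaction p of 0.64.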

How the results depend on the processing

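Over 8 other fits, the fall of summed Bcl2a1, run on that row after seeing the data, was -1.18 to -1.12 in WT (adjusted p 1.15e-05 to 0.05, the highest at the threshold in the WT groups alone) and -1.60 to -1.35 in Bmal1 Mye-/- (1.07e-10 to 0.0024). Genes called with IMQ in WT numbered 554, and 1480 by DESeq2, 326 with no filter, 186 in a fit of the WT groups alone, 190 with the replicate block, 1330 without the 4 libraries low in mature markers, 2129 without the 2 near the untreated, and 48 to 1989 leaving out 1 library (the highest without IMQ-treated WT replicate 5). Members called there were 4 by DESeq2, 5 without those 2 libraries, 1 with RLE factors, no filter, at least 10 counts in every library, the WT groups alone or the block, and 0 to 5 leaving out 1; wider genes were 3, 4 and 7 by DESeq2, without the 2 and without the 4, and 1 to 4. In Bmal1 Mye-/- with IMQ, genes were 331 without the 4 libraries and 1612 to 4499 leaving out 1, members 1 and 4 to 6, wider genes 1 and 3 to 17, and 6 with no filter. Between genotypes, 59 genes were called in the untreated groups alone (24 to 32 leaving out 1), and with IMQ 313 by DESeq2, 16 in the IMQ groups alone, 22 without the 2 libraries and 20 to 3129 leaving out 1 (members 0 to 1, wider genes 0 to 12, interaction genes 0 to 1).

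With upper-quartile factors 47.7% of WT and 50.2% of Bmal1 Mye-/- calls with IMQ were higher, and by limma 28.4% in WT, beside 329 of 554 and 2024 of 3292. Limma on library-size CPM moved the median of all genes to 0.22 between genotypes with IMQ and 0.19 in the interaction. The block also took the call from Bcl2l1 in WT (0.52, edgeR adjusted p = 0.0639). Beside Bax and Bcl2l1 it changed no other call of a member or named gene. Of the 8 other fits, Bcl2l1 in WT passed in 2 (adjusted p 0.0151 to 0.0741) and Bax in Bmal1 Mye-/- in 3 (0.0271 to 0.0898). Signs turned only for uncalled values: with IMQ in WT, Mcl1 by limma (-0.03; -0.07 to 0.21 leaving out 1), Bcl2l11 (-0.11 to 0.06), Pmaip1 with the block (0.03) or without the 2 (0.10; -0.25 to 0.10) and Trp53 without the 4 (-0.01; -0.01 to 0.15); in Bmal1 Mye-/-, without the 4, Mcl1 (0.02), Bcl2 (-0.11) and Pmaip1 (-0.76; -0.33 to 0.56), and Bcl2l1 with upper-quartile factors (-0.03; -0.10 to 0.17). Between untreated genotypes this held for Bcl2a1d (0.01 by DESeq2, RLE and the groups alone, 0.02 by upper quartile; -0.16 to 0.18). With IMQ it held for Mcl1 (0.05 by limma, 0.08 without the 4; -0.28 to -0.00), Bcl2a1d (0.06 and 0.25; -0.26 to 0.17), Bcl2l11 (0.14 by limma; -0.10 to 0.03), Bax (-0.06 to 0.44) and Bak1 (0.03 by upper quartile, 0.20 by limma, 0.01 with either other filter or the groups alone; -0.07 to 0.10), and in the interaction for Bcl2a1d (0.07 by limma, 0.26 without the 4; -0.29 to 0.19) and Bcl2l11 (0.00 by limma). Mean Bcl2l11 in IMQ-treated Bmal1 Mye-/- was 25.5 CPM by library size. The cause was not tested. Bcl2a1d, at 4 to 41 reads, is limited by depth.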
